A study of Arabidopsis thaliana with 12 samples.

Results

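PDF1.2, PDF1.2b and PDF2.1 are plant defensin genes of Arabidopsis thaliana. Each was read by 1 probe set of the Affymetrix ATH1 array, and these 3 probe sets were taken, out of 22746 tested, because the platform gene table pairs each with that gene alone. PDF1A and PDF1B, whose symbols look alike but which encode peptide deformylases, were left out. Seedlings on plates, 2 weeks old, grew under 16 h of light at 23 °C and 8 h of dark at 18 °C, and chilling meant a transfer to 4 °C for 3 or 48 h, with plants at 0 h left unchilled. The 12 arrays form 6 groups of 2: wild type (WT) at each time and the rdm4 mutant at each time. RDM4 binds RNA polymerase II and takes part in DNA methylation guided by small RNAs, and the design asks how the response to chilling differs in its mutant. The labels conflict on the material. The WT titles name C24 while the ecotype is entered as Col, the mutant's genotype is entered as 35S::RDM4, a name for RDM4 under the viral 35S promoter, and the free-text notes on replicate 2 contradict the treatments in its titles. Groups follow the titles. The tissue is entered as leaf, while the protocol speaks of RNA from seedlings. A plate held at least 30 seedlings, so an array averages over many plants, and each group's replicates came from separate growth chambers.

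Defensins are small secreted peptides, held in a compact fold by disulfide bridges, and many inhibit the growth of fungi. PDF1.2 is the usual marker of the branch of jasmonate signalling that works together with ethylene. In that branch the ethylene factor EIN3 and factors of the ERF family, such as ORA59, drive defensin and chitinase genes, while salicylate signalling and the jasmonate factor MYC2 act against it. PDF1.2b is a close copy of PDF1.2, and PDF2.1 belongs to another defensin subfamily.

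The copies limit what a probe set can tell. In the RefSeq gene table for TAIR10.1, PDF1.2 (AT5G44420) lies next to PDF1.2c, and PDF1.2b (AT2G26020) next to PDF1.3. The platform gene table gives no probe set to PDF1.2c or PDF1.3. The probe set of PDF1.2b, 257365_x_at, has the suffix that the maker gives to sets with probes that can also match other transcripts, so its signal may include other copies, and the same may hold for that of PDF1.2, 249052_at. PDF2.1 (AT2G02120) was read by 266141_at and lies next to LCR68, also called PDF2.3, with LCR72 (PDF2.6) beyond it and LCR69 (PDF2.2) on its other side. Levels of different probe sets are not compared here.

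Replicate arrays differed little, with an SD of their log2 difference across probe sets of 0.13 to 0.17. Of 10 leaf markers listed, 5 could be measured, LHCB4.1, LHCB4.2, LHCB4.3, RCA and PSAN. They lay at or above the 86.4th percentile of probe sets in every group. The root marker PYK10, an abundant glucosidase of root tissue, was also high, from the 95.2nd to the 99.3rd percentile. The other root markers measured were lower. AT5G17820 lay from the 31st to the 73rd percentile, EXPA18 from the 34th to the 41st and EXPA7 from the 23rd to the 33rd. The difference between the genotypes turned at 3 h across the whole array. Across probe sets, which are not independent replicates, the log2 difference of rdm4 from WT at 0 h had a correlation of r = -0.61 with that at 3 h, and no array enters both. It was r = 0.22 between 0 h and 48 h and r = -0.36 between 3 h and 48 h. There were 81 probe sets whose calls at 0 h and 48 h shared a direction and were 2-fold or more each time. Of them 75 were called at 3 h, and 73 of those had the opposite sign. Whether the genotype labels of the 3 h arrays are exchanged was not tested. The RDM4 transcript was not analysed here and gives no check of the labels. WT and rdm4 therefore mean the arrays so labelled, every result with a 3 h array rests on those labels, and the values at 0 h and 48 h, and differences between them, use none of the 3 h arrays. The mean response of both genotypes at 3 h does not depend on which 3 h arrays carry which genotype label.

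PDF1.2b had the widest range of the 3 probe sets. The log2 signal in WT was 8.38 and 8.39 at 0 h, 5.30 and 5.29 at 3 h, and 8.99 and 8.82 at 48 h. The rdm4 arrays read 5.64 and 6.05 at 0 h, 9.68 and 9.83 at 3 h, and 6.18 and 5.74 at 48 h. The arrays thus fell into a high set, made of WT at 0 h and 48 h and rdm4 at 3 h, and a low set, made of WT at 3 h and rdm4 at 0 h and 48 h, with no array between. From low to high the order was WT at 3 h, rdm4 at 0 h, rdm4 at 48 h, WT at 0 h, WT at 48 h and rdm4 at 3 h, and of neighbours in this order only rdm4 at 0 h and 48 h overlapped. The low set lay from the 37.4th to the 47.9th percentile of probe sets on its arrays, above the dimmest 30%, and the high set from the 77.8th to the 91.4th.

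**Figure D1:**
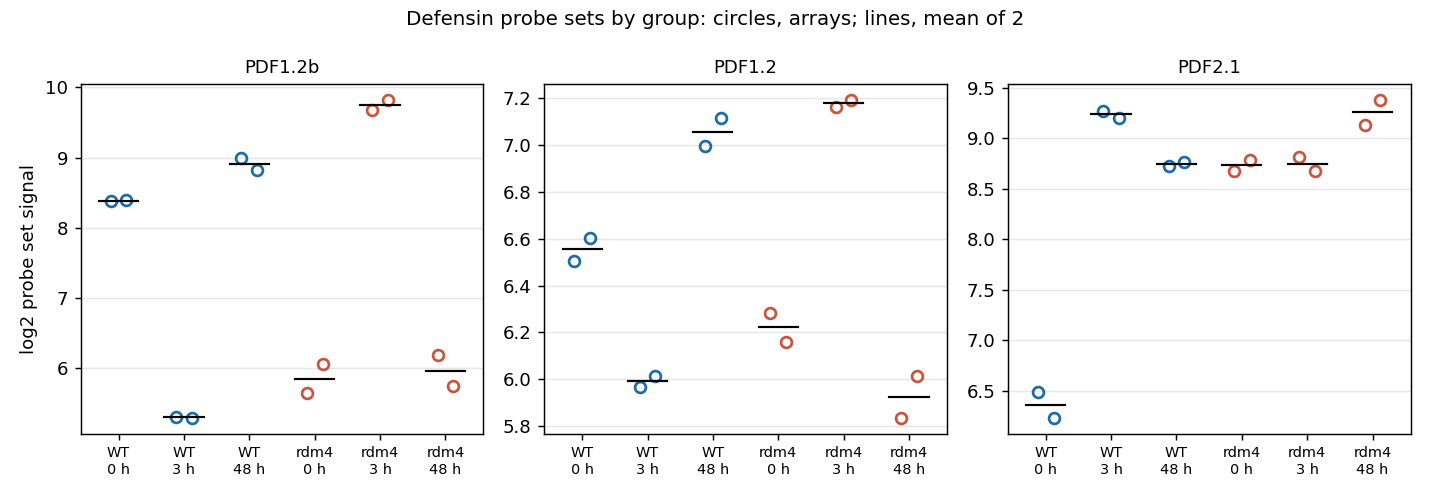
Log2 probe set signal of PDF1.2b, PDF1.2 and PDF2.1 (vertical axes, a scale of its own for each) in the 6 groups (horizontal axis). Each circle is 1 array and each line the mean of 2. PDF1.2b and PDF1.2 are highest in rdm4 at 3 h, at group means of 9.75 and 7.18, while PDF2.1 is lowest in WT at 0 h, at 6.36.

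Because PDF1.2b, PDF1.2 and PDF2.1 were chosen with these levels known, their differences are given as a description, with the standard error of a limma fit over all probe sets and no p-value. PDF1.2b lay below WT in rdm4 at 0 h by a log2 difference of -2.54 ± 0.15 (5.82-fold) and at 48 h by -2.95 ± 0.15 (7.71-fold), and higher at 3 h by 4.46 ± 0.15 (22.0-fold). Ordered by this difference over all 22746 probe sets, it stood at rank 10 from the low end at 0 h, at rank 1 from the low end at 48 h and at rank 1 from the high end at 3 h. The 3 h difference also had rank 1 by size, which holds whichever pair of 3 h arrays is WT, while its sign would turn, to that of 0 h and 48 h, if the labels were exchanged. Against 0 h, the arrays labelled WT at 3 h were at -3.09 ± 0.15 and those labelled rdm4 at 3.91 ± 0.15, so that the mean response at 3 h was only 0.41 ± 0.10. At 48 h the change was 0.52 ± 0.15 in WT, without overlap of the arrays, and 0.11 ± 0.15 in rdm4, where they overlapped. Leaving out 1 rdm4 array at a time put this last value between -0.11 and 0.34. PDF1.2b thus differed between the genotypes far more than between 0 h and 48 h within either.

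PDF1.2 followed PDF1.2b over a narrower range. Its log2 signal in WT was 6.51 and 6.60 at 0 h, 5.97 and 6.01 at 3 h, and 6.99 and 7.11 at 48 h. The rdm4 arrays read 6.28 and 6.16 at 0 h, 7.16 and 7.19 at 3 h, and 5.84 and 6.01 at 48 h. The same 3 groups were high as for PDF1.2b, in the same order, and of neighbouring groups only the lowest pair, rdm4 at 48 h and WT at 3 h, overlapped. All arrays lay between the 43.6th and 60.6th percentiles of probe sets. PDF1.2 differed between rdm4 and WT by -0.33 ± 0.08 at 0 h, 1.19 ± 0.08 at 3 h and -1.13 ± 0.08 at 48 h, which is 1.26-fold, 2.28-fold and 2.19-fold. From 0 h to 48 h it was higher in WT by 0.50 ± 0.08 and lower in rdm4, at -0.30 ± 0.08, with no overlap in either. At 3 h the change was -0.56 ± 0.08 in WT and 0.96 ± 0.08 in rdm4, and the mean of both was 0.20 ± 0.06. Over the 12 arrays the signals of PDF1.2 and PDF1.2b correlated with r = 0.94 and rho = 0.84, a description of arrays that fall into 6 groups and of probe sets that may share targets.

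PDF2.1 behaved differently and was set apart by WT at 0 h. Its log2 signal in WT was 6.49 and 6.23 at 0 h, 9.27 and 9.20 at 3 h, and 8.73 and 8.76 at 48 h. The rdm4 arrays already read 8.68 and 8.78 at 0 h, then 8.81 and 8.68 at 3 h, and 9.14 and 9.38 at 48 h. Only the unchilled WT arrays were low, near the middle of all probe sets (48.2nd and 51.3rd percentiles), and the other arrays lay between 8.68 and 9.38. Of the groups above it, rdm4 at 0 h, WT at 48 h and rdm4 at 3 h overlapped one another, and so did the highest pair, WT at 3 h and rdm4 at 48 h.

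At 0 h PDF2.1 was therefore above its WT level in rdm4 by 2.37 ± 0.10 (5.17-fold), at rank 11 from the high end of all probe sets. The difference was -0.49 ± 0.10 at 3 h and 0.51 ± 0.10 at 48 h. In WT it was above 0 h by 2.87 ± 0.10 at 3 h (7.34-fold) and by 2.38 ± 0.10 at 48 h (5.22-fold). In rdm4 the change was 0.02 ± 0.10 at 3 h, with overlapping arrays, and 0.53 ± 0.10 at 48 h, without overlap. The mean of both genotypes was 1.45 ± 0.07 at 3 h and 1.46 ± 0.07 at 48 h. These means rest on the low level in WT at 0 h. Unchilled plants were sampled at 0 h only, so a change with chilling cannot be told apart from one of age, or at 3 h of time of day.

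**Figure D2:**
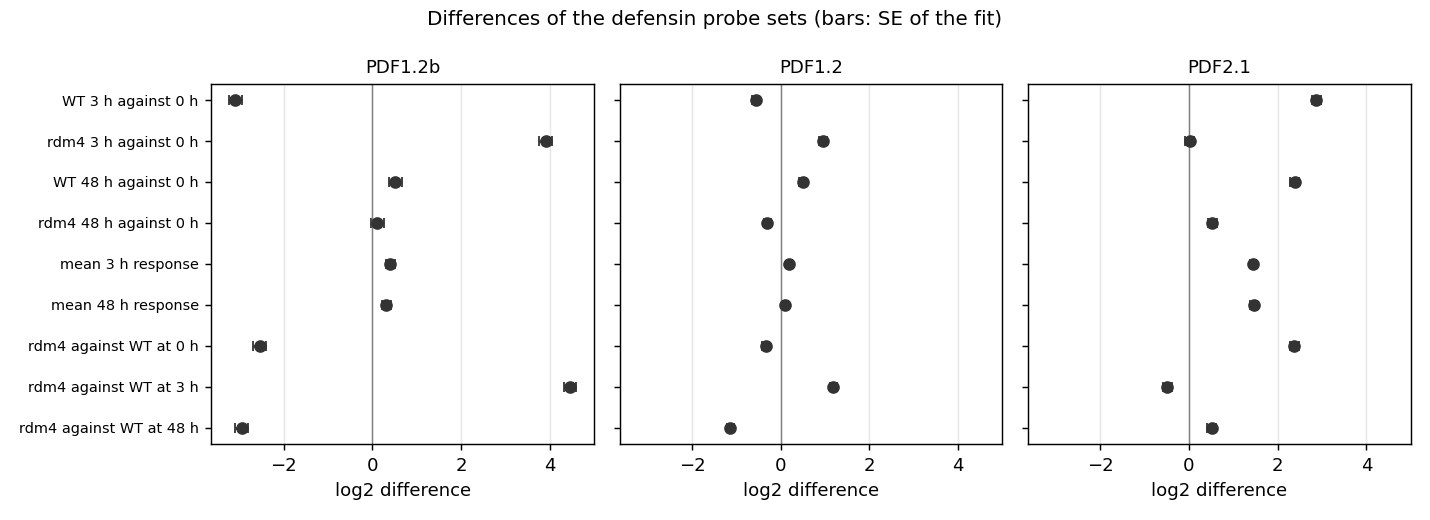
Log2 differences (horizontal axes) of PDF1.2b, PDF1.2 and PDF2.1 in the 9 comparisons (vertical axis), with bars for the standard error of the fit and 2 arrays a group. PDF1.2b and PDF1.2 change sign between genotypes at 3 h and between times in the rdm4 minus WT difference, while PDF2.1 stands at 2.87 and 2.38 in WT and at 0.02 and 0.53 in rdm4.

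Groups whose arrays did not overlap were common here, whatever the size of the difference. PYK10, for example, had no overlap between rdm4 and WT at 48 h, at a log2 difference of -0.05. The arrays of rdm4 and WT did not overlap in all 3 defensins at 0 h, at 3 h and at 48 h, which was so for 59.7%, 67.4% and 66.3% of all probe sets. In both PDF1 genes rdm4 was lower, then higher, then lower at 0 h, 3 h and 48 h without overlap, a sequence that 11.7% of all probe sets had. In PDF2.1 rdm4 was higher, then lower, then higher, as in 10.6% of them. Both sequences rest on the 3 h labels: with these exchanged, the same probe sets would be lower, or higher, at all 3 times. Between 0 h and 3 h in WT the arrays of all 3 defensins did not overlap (71.9% of all probe sets), and in rdm4 those of 2 did not (65.7%). Between 0 h and 48 h these counts were 3 in WT (73.0%) and 2 in rdm4 (70.7%). The members were chosen on these contrasts, so the shares are given only for scale.

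**Figure D3:**
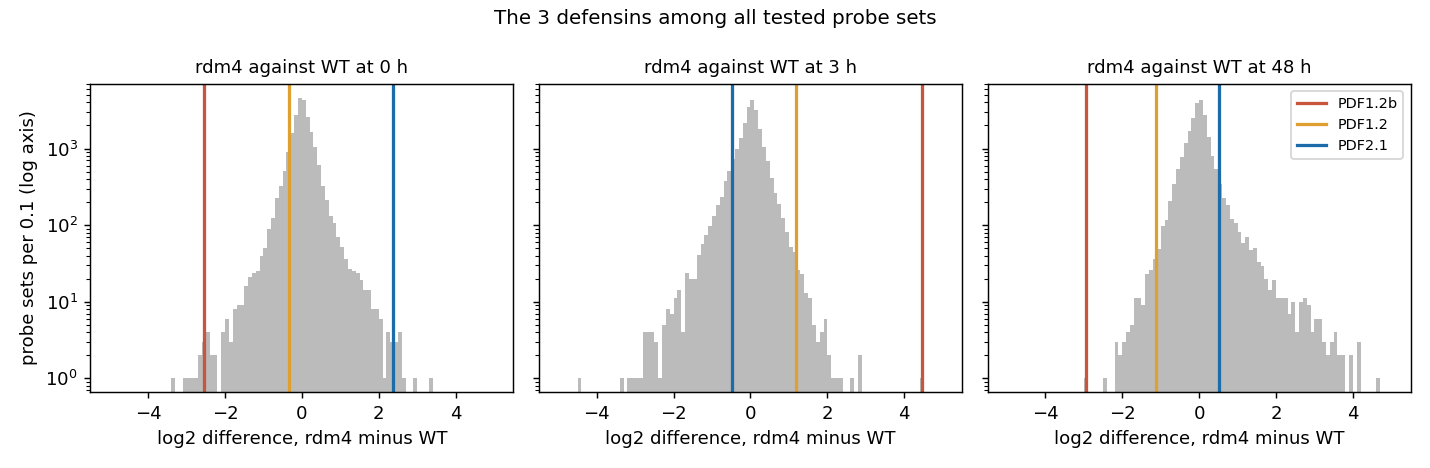
Histograms of the log2 difference, rdm4 minus WT, of all 22746 probe sets at 0, 3 and 48 h (horizontal axes; vertical axis, probe sets per bin on a log scale), with lines for the 3 defensins. PDF1.2b lies at the outer edge of each, at -2.54, 4.46 and -2.95, whereas PDF2.1 does so only at 0 h, at 2.37.

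The genes whose levels were most like those of each defensin were taken from 2934 named genes whose group means spanned at least 1 log2 unit. For PDF1.2 and for PDF1.2b the 5 closest were the same genes, AT5G64640, AT2G29170, AT5G64110, IAA29 and iqd21, with r over the 12 arrays from 0.91 to 0.97. IAA29 encodes an Aux/IAA repressor of auxin signalling, and its r with PDF1.2b was 0.95 and its rho 0.92. Its group means were 5.68, 5.06 and 5.99 in WT at 0, 3 and 48 h and 5.32, 6.33 and 5.06 in rdm4, so that it too was highest in rdm4 at 3 h. AT2G29170 differed between rdm4 and WT by -0.75 at 0 h, 1.61 at 3 h and -1.08 at 48 h, smaller steps than those of PDF1.2b. For PDF2.1 the closest were AT1G62790, THI2.2, AT1G24575, AT4G38080 and AT3G58550, with r from 0.95 to 0.97. All 5 had their lowest group mean in WT at 0 h, as PDF2.1 did. These genes, THI2.2 included, were picked for their likeness, so no test of their own is given for them.

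Of 10 other defensins looked for, 7 had a probe set of their own: LCR67 (PDF1.1), PDF1.4, LCR69 (PDF2.2), LCR68 (PDF2.3), LCR66 (PDF2.4), PDF2.5 and LCR72 (PDF2.6). In WT at 3 h 3 of 7 were called higher at an adjusted p under 0.05 (limma, Benjamini-Hochberg over all probe sets) and 0 lower, with a list median of 0.17, against a median of -0.04 over all probe sets, of which 46.8% were called, 23.1% higher and 23.7% lower. In WT at 48 h 3 were called higher and 0 lower, against 50.4% of all probe sets called, 24.6% higher and 25.8% lower. In rdm4 at 3 h 3 were called higher and 1 lower, against 40.0% of all, 17.1% higher and 22.9% lower. In rdm4 at 48 h 3 were called higher and 0 lower, against 50.5% of all, 22.8% higher and 27.8% lower. The number of other defensins called in either direction was thus near the share of all probe sets, and with 7 genes little can be read from its direction.

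PDF2.5 rose in all 4 chilling comparisons, by 1.42 ± 0.09 at 3 h and 0.82 ± 0.09 at 48 h in WT (limma, adjusted p = 7.96e-08 and 7.26e-06) and by 0.61 ± 0.09 and 0.27 ± 0.09 in rdm4 (0.000167 and 0.0287). Its levels at 0 h, 4.31 in WT and 4.61 in rdm4, were among the dimmest 30% of probe sets, which makes the sizes uncertain. LCR69 was among the brightest probe sets of every group, from 12.82 to 13.37, and rose at 48 h by 0.49 ± 0.08 in WT and 0.50 ± 0.08 in rdm4 (limma, adjusted p = 0.000185 and 0.000145). At 3 h it rose by 0.55 ± 0.08 in rdm4 (limma, adjusted p = 0.000108) and was at 0.01 ± 0.08 in WT. LCR67 rose by 0.28 ± 0.09 in WT at 3 h (limma, adjusted p = 0.0234), and PDF1.4 by 0.36 ± 0.09 in rdm4 at 3 h (0.00844). LCR66, LCR67 and LCR72 were among the dimmest 30% in every group and PDF1.4 in 4 of 6 groups. LCR66 and LCR72 were called in none of the 7 comparisons plotted.

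**Figure D4:**
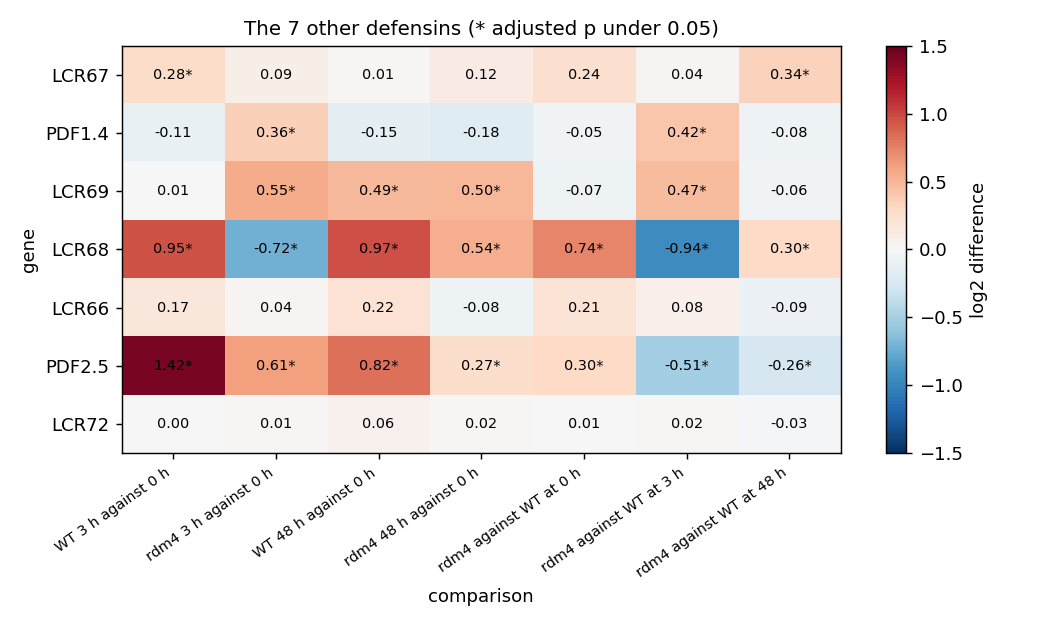
Log2 differences of the 7 other defensins (rows) in 7 comparisons (columns), by colour and number, with an asterisk for an adjusted p under 0.05 in limma. LCR68 is higher in WT at 3 h, at 0.95, and lower in rdm4, at -0.72, while PDF2.5 is higher at both times in both genotypes.

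LCR68, the gene beside PDF2.1, shared part of its pattern. Its log2 signal was 10.93 and 11.02 in WT at 0 h, 11.97 and 11.88 at 3 h, and 11.97 and 11.93 at 48 h. The rdm4 arrays read 11.69 and 11.73 at 0 h, 10.97 and 11.01 at 3 h, and 12.19 and 12.31 at 48 h. WT at 0 h was again low, but so was rdm4 at 3 h, where PDF2.1 was not. LCR68 was above its WT level in rdm4 at 0 h by 0.74 ± 0.07 and at 48 h by 0.30 ± 0.07, and lower at 3 h, at -0.94 ± 0.07 (limma, adjusted p = 9.20e-06, 0.00471 and 8.32e-07). In WT it rose by 0.95 ± 0.07 at 3 h and 0.97 ± 0.07 at 48 h. The rdm4 signal fell by 0.72 ± 0.07 at 3 h and rose by 0.54 ± 0.07 at 48 h. Of the 7 other defensins, LCR68 and PDF2.5 were called between the genotypes at 0 h, both higher in rdm4, against 29.8% of all probe sets called, 16.1% higher and 13.7% lower. At 3 h PDF1.4 and LCR69 were called higher and LCR68 and PDF2.5 lower, against 36.7% of all, 17.6% higher and 19.1% lower. At 48 h LCR67 and LCR68 were called higher and PDF2.5 lower, against 35.0% of all, 16.0% higher and 19.0% lower. At 3 h the calls over all probe sets were 4007 higher and 4350 lower, and 5479 and 3628 once each array was centred on its median. Without WT 0 h replicate 1 or rdm4 0 h replicate 1, 1 of 7 was called at 0 h, and without WT 48 h replicate 2, 1 of 7 at 48 h. Beside PDF1.2, the gene next to it on the other side from PDF1.2c, AT5G44410, was lower in rdm4 at 0 h, at -0.49 ± 0.11, higher at 3 h, at 0.66 ± 0.11, and lower at 48 h, at -1.14 ± 0.11 (limma, adjusted p = 0.00451, 0.00039 and 4.90e-06). Of the 7 neighbours of PDF1.2 within 4 genes that had a probe set, 2 were called in this sequence, AT5G44410 and AT5G44450, and 3 at no time. By arrays without overlap 11.7% of all probe sets had this sequence, and the share by calls was not counted. AT5G44380 ran the other way, at 1.47 ± 0.12 at 0 h and -1.10 ± 0.12 at 3 h (limma, adjusted p = 3.46e-06 and 2.30e-05), and AT5G44390 was called higher at 48 h only, at 0.73 ± 0.11 (0.000327). Of the 3 measured neighbours of PDF1.2b, 0 were called lower, higher and lower, and 2 were called at no time. Of the 4 of PDF2.1, 1 was called higher, lower and higher, and 2 at no time. By arrays without overlap, a different measure, 10.6% of all probe sets were higher, lower and higher. The shares of all probe sets called in that sequence, or called at no time, were not counted. Whether any of these neighbour counts is unusual cannot be told. All these neighbours were looked up once the levels of PDF1.2, PDF1.2b and PDF2.1 were known.

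Few genes of the jasmonate, ethylene and salicylate pathways could be measured by name, 11 of 104 listed. At the level of hormone synthesis, OPCL1, a ligase in the formation of jasmonate, rose at 3 h by 1.15 ± 0.09 in WT and 1.27 ± 0.09 in rdm4 (limma, adjusted p = 4.93e-07 and 2.52e-07). At 48 h it was at 0.02 ± 0.09 in WT and rose by 0.78 ± 0.09 in rdm4. JMT, which forms methyl jasmonate, rose at 48 h by 2.5 ± 0.15 in WT and 1.28 ± 0.15 in rdm4 (limma, adjusted p = 2.76e-08 and 1.44e-05), from dim levels at 0 h that make the sizes uncertain. At 48 h JMT was lower in rdm4 than in WT, at -1.31 ± 0.15, and OPCL1 higher, at 0.49 ± 0.09 (limma, adjusted p = 3.35e-05 and 0.00109). At 0 h OPCL1 was lower in rdm4, at -0.27 ± 0.09, and JMT was at -0.09 ± 0.15 (limma, adjusted p = 0.0435 and 0.741). At 3 h neither was called between the genotypes. Among regulators, MYC4, a jasmonate factor related to MYC2, rose in all 4 chilling comparisons, by 0.39 to 1.03, and was lower in rdm4 at 0 h, at -0.25 ± 0.09 (limma, adjusted p = 0.0481). MYC3 was lower in rdm4 at 48 h, at -0.68 ± 0.09 (limma, adjusted p = 0.000115), and was at -0.19 ± 0.09 at 0 h and 0.17 ± 0.09 at 3 h.

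EIN3, which acts upstream of the ERF factors, fell at 48 h by 0.63 ± 0.07 in WT and 0.60 ± 0.07 in rdm4 (limma, adjusted p = 6.38e-06 and 1.03e-05). At 0 h and 48 h, where PDF1.2b and PDF1.2 were lower in rdm4, EIN3 differed between rdm4 and WT by -0.06 ± 0.07 and -0.03 ± 0.07 (limma, adjusted p = 0.582 and 0.801). At 3 h it was higher in rdm4 by 0.48 ± 0.07 (limma, adjusted p = 0.000165). On the salicylate side, GRX480, a glutaredoxin that can repress PDF1.2 when overexpressed, was above its WT level in rdm4 at 48 h by 1.5 ± 0.10 (limma, adjusted p = 3.70e-07). Its log2 signal was 5.62 and 5.56 in WT at 48 h against 6.96 and 7.21 in rdm4. SAG101, a partner of the immune regulator EDS1, was higher in rdm4 at 48 h by 0.95 ± 0.08 (limma, adjusted p = 1.84e-06). At 0 h, where PDF1.2b was also lower in rdm4, GRX480 was at -0.08 ± 0.10 and SAG101 at 0.01 ± 0.08 (limma, adjusted p = 0.654 and 0.969). At 3 h, where PDF1.2b was higher in the arrays labelled rdm4, GRX480 was lower in them, at -0.49 ± 0.10 (limma, adjusted p = 0.00265), and SAG101 was at -0.02 ± 0.08 (0.891). Whether EIN3, GRX480 or SAG101 acts on the defensin levels here was not tested.

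Among other defence targets, THI2.2, which encodes a thionin, an antimicrobial peptide, and OSM34, an osmotin-like protein of the PR-5 family, were low in WT at 0 h, as PDF2.1 was. OSM34 had a log2 signal of 6.60 and 6.72 in WT at 0 h, 9.59 and 9.53 at 3 h, and 7.91 and 7.94 at 48 h, against 8.55 and 8.56 in rdm4 at 0 h. It rose in WT by 2.90 ± 0.07 at 3 h and fell in rdm4 by 0.25 ± 0.07 (limma, adjusted p = 1.92e-11 and 0.0108). THI2.2, described here without a test since it was also picked for likeness to PDF2.1, was at 1.4 ± 0.07 at 3 h and 1.24 ± 0.07 at 48 h in WT, and at -0.28 ± 0.07 and 0.26 ± 0.07 in rdm4. THI2.1, another thionin gene, and AT5G43410 were among the dimmest 30% in all groups. AT5G43410 was called in no comparison, and THI2.1 was higher in rdm4 at 0 h by 0.52 ± 0.12 (limma, adjusted p = 0.00574).

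Over the 11 pathway genes together, THI2.2 among them, 5 were called higher and 1 lower in WT at 3 h, where 46.8% of all probe sets were called. The counts were 4 and 2 in WT at 48 h (50.4% of all called), 3 and 3 in rdm4 at 3 h (40.0%), and 6 and 4 in rdm4 at 48 h (50.5%). The medians were 0.34, 0.02, 0.11 and 0.26, and those of all probe sets -0.04, -0.02, -0.02 and -0.01. Between rdm4 and WT 3 were called higher and 2 lower at 0 h (29.8%), 1 and 3 at 3 h (36.7%), and 4 and 2 at 48 h (35.0%), with medians of -0.08, -0.08 and 0.13. Without rdm4 3 h replicate 1, 3 of 11 were called in rdm4 at 3 h. Of the 5 called between the genotypes at 0 h, 3 were left without the 3 h arrays or without rdm4 0 h replicate 1, and 2 without WT 0 h replicate 2 or rdm4 0 h replicate 2.

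The root markers measured were low in WT at 0 h, as PDF2.1 was. Of 14 root markers listed, 4 could be measured, AT5G17820, PYK10, EXPA7 and EXPA18. All 4 rose in WT at 3 h and at 48 h, where 23.1% and 24.6% of all probe sets were called higher. At 0 h all 4 were called higher in rdm4, as were 16.1% of all probe sets. Leaving out any 1 of the compared arrays lowered this count to 2 or 3 of 4. It was 2 without WT 0 h replicate 1 or rdm4 0 h replicate 1. The log2 of their summed signal was 10.66 and 10.69 in WT at 0 h, 12.58 and 12.58 at 3 h, and 11.71 and 11.71 at 48 h. The rdm4 arrays read 11.97 and 11.99 at 0 h, 11.86 and 11.97 at 3 h, and 11.64 and 11.70 at 48 h. This sum is mostly PYK10, whose own group means were 10.60, 12.50 and 11.62 in WT and 11.92, 11.86 and 11.57 in rdm4. WT at 0 h was lowest and WT at 3 h highest in each of the 4 markers taken alone, and WT at 0 h was lowest in PDF2.1 too. EXPA7, a marker of root hair cells, was among the dimmest 30% in 4 of 6 groups. At 48 h in rdm4, where PDF2.1 was at 0.53 above 0 h, PYK10 fell by 0.35 ± 0.06 (limma, adjusted p = 0.000452) and the other 3 rose by 0.25 to 0.63; without rdm4 0 h replicate 2, 2 of 4 were called there. Between rdm4 and WT at 48 h PDF2.1 was at 0.51. There EXPA7 alone of the markers was called, at 0.25 ± 0.08 (limma, adjusted p = 0.0269), against 35.0% of all probe sets. That call was lost when any 1 of the compared arrays was left out. AT5G17820 was at 0.105, EXPA18 at 0.07 and PYK10 at -0.05. The part of root tissue in the PDF2.1 levels was not tested. In such bulk samples fewer cells of a type and less RNA per cell cannot be told apart.

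**Figure D5:**
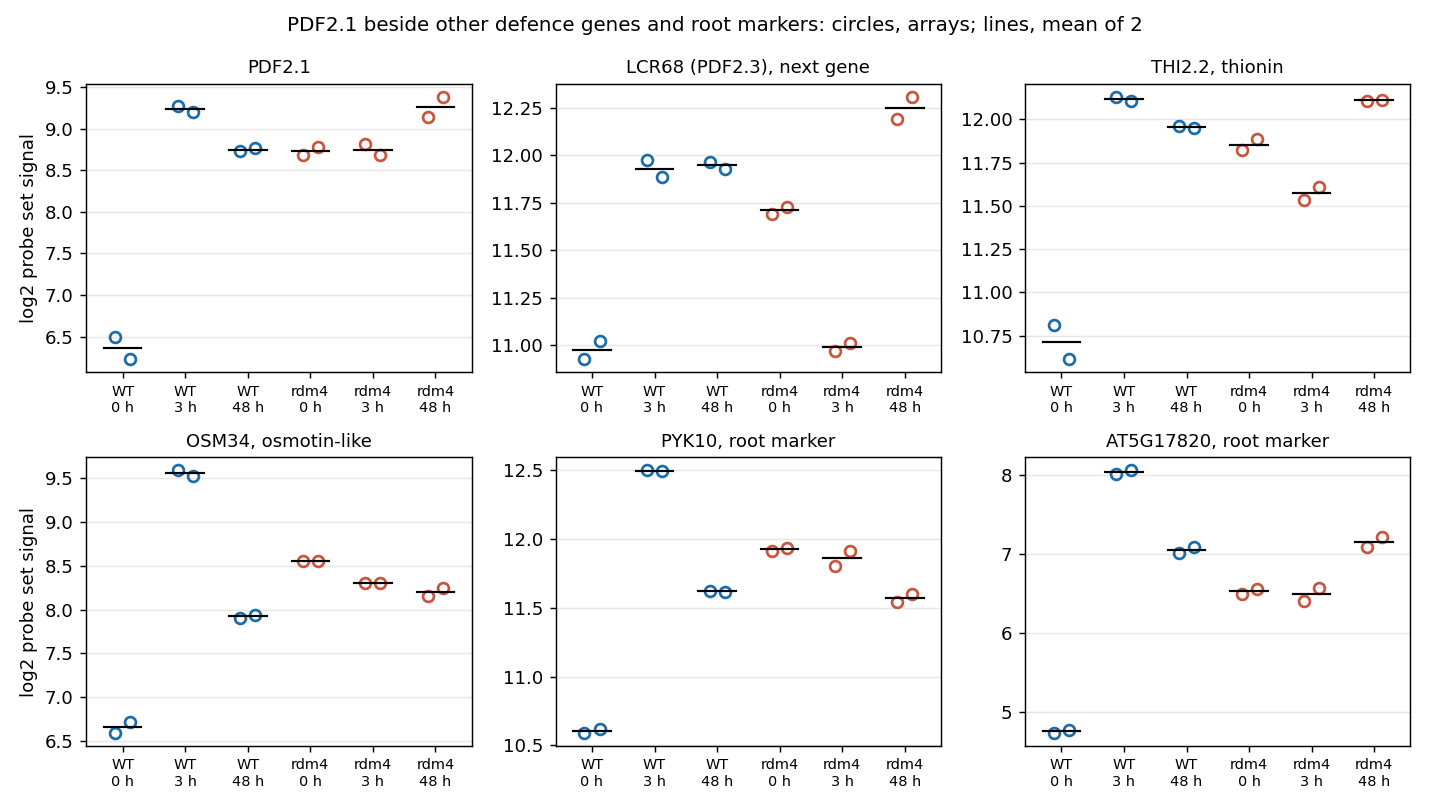
Log2 probe set signal (vertical axes, a scale of its own for each) of PDF2.1, LCR68, THI2.2, OSM34 and the root markers PYK10 and AT5G17820 in the 6 groups (horizontal axes). Each circle is 1 array and each line the mean of 2. WT at 0 h is the lowest group in each panel, at 6.36 for PDF2.1 and 10.60 for PYK10, and in LCR68 rdm4 at 3 h is about as low, at 10.99.

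For PDF1.2b the groups were ordered otherwise than for the root markers. WT at 0 h and 48 h and rdm4 at 3 h, its high groups, had PYK10 levels of 10.60, 11.62 and 11.86, and WT at 3 h and rdm4 at 0 h and 48 h, its low groups, 12.50, 11.92 and 11.57. AT5G17820 was at 4.75, 7.05 and 6.49 in the high groups and 8.03, 6.53 and 7.15 in the low groups. EXPA7 was at 4.29, 4.65 and 4.56 against 4.94, 4.61 and 4.90, and EXPA18 at 4.94, 5.37 and 5.13 against 5.58, 5.19 and 5.44. The part of root tissue in the PDF1.2b levels was not tested. The summed signal of the 5 leaf markers was between 15.20 and 15.68 in all groups, at 15.62, 15.20 and 15.68 in the high groups and 15.50, 15.53 and 15.21 in the low groups. This sum is mostly LHCB4.1, RCA and PSAN. LHCB4.3 alone was at 10.18, 9.20 and 9.61 in the high groups and 10.58, 10.63 and 10.23 in the low groups. It was called higher in rdm4 at 0 h (0.45), lower at 3 h (-0.97) and higher at 48 h (1.03). LHCB4.2 was called higher in rdm4 at 3 h (0.44) and lower at 48 h (-0.80), and not at 0 h.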

How the data were processed

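The deposited values are log2 probe set signals, as found from their range; no source used here says how the authors summarised or normalized them, and nothing more was done to them. Leaving out 64 controls of 22810 probe sets left 22746. The platform annotation paired 13513 of the rest with 1 gene and 503 with several, and 8730 stay unnamed here. Symbols were updated through the RefSeq gene table. Where a gene had several probe sets, the brightest stood for it. Models of 6 group means over all 12 arrays were fitted with limma 3.58.1 in R 4.3.3 (lmFit and eBayes, with 6 residual degrees of freedom and a prior of 5.97) and tested on simulated data. Within each of 9 comparisons, Benjamini-Hochberg adjustment ran over all probe sets, with calls under 0.05. The members and lists were chosen with earlier results of these data known. Text names the members, all other defensins measured, per list up to 3 called and 2 uncalled genes, and the 5 genes most like each member; genes beside the members were added later. A list gene was left out where the table names its locus otherwise. Of 7 genes listed as targets of the MYC branch of jasmonate signalling, 0 had a named probe set. Alternatives were median centring, quantile normalization, a replicate block, other eBayes settings, no dim probe sets, fits of the compared arrays alone, and leaving out each array or, added after seeing the data, all 3 h arrays. Precision is limited by the few arrays. With no background values in the files, a group mean among the dimmest 30% of probe sets is called dim. The p-values rest on the spread between the 2 arrays of a group, pooled over the 6 groups and moderated across probe sets. As replicates came from different chambers, that spread is between separately grown seedlings.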

Additional observations from a re-analysis of the deposited data

Results flagged for a closer look

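In the following genes both chilled arrays lay above both 0 h arrays in one genotype and below them in the other. Within a single comparison such a gap, in either direction, was found in 65.7% to 73.0% of all probe sets. The share with opposite gaps in both genotypes was not counted, so whether these genes are unusual cannot be told. The difference between the genotypes' responses was not tested, and at 3 h it rests on the genotype labels of the 3 h arrays. At 3 h PDF1.2b was at -3.09 in WT and 3.91 in rdm4, and PDF1.2 at -0.56 and 0.96. At 48 h PDF1.2 was at 0.50 in WT and -0.30 in rdm4. Of the other defensins, LCR68 was at 0.95 and -0.72 at 3 h.

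Among the defence targets at 3 h, THI2.2 was at 1.4 in WT and -0.28 in rdm4, and OSM34 at 2.90 and -0.25, with 1.27 and -0.35 at 48 h. Among regulators at 3 h, MYC3 was at -0.21 and 0.15 and EIN3 at -0.41 and 0.13. Of these, MYC3 in both genotypes and EIN3 in rdm4 did not pass the test of the change itself (limma, adjusted p = 0.0909, 0.25 and 0.17). SAG101 was at -0.29 and 0.65 at 48 h. The root marker PYK10 was at 1.89 and -0.066 at 3 h, the latter not past the test (limma, adjusted p = 0.474), and at 1.01 and -0.35 at 48 h. Leaf markers were not screened for this list, but some had such opposite gaps at 3 h. LHCB4.3 was at 0.40 in WT and -1.02 in rdm4, and PSAN at -0.255 and 0.255. LHCB4.1 and RCA also had them, with smaller changes.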

How the results depend on the processing

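Under median centring, quantile normalization and the replicate block, all 27 differences of PDF1.2, PDF1.2b and PDF2.1 kept their value within 1 residual SD, as did the 15 that remain without the 3 h arrays. Neither the replicate block nor the loss of the 3 h arrays could move these differences, as each group holds both replicate numbers and has its own mean. PDF1.2b in rdm4 against WT at 3 h thus stayed at 4.46 with the block. Whether same-numbered replicates shared a growth chamber is not known here. Over 15 pairs of groups their deviations correlated with r from -0.15 to 0.27, which cannot exclude a shared effect. When 1 array was left out, the differences of PDF1.2b ranged from 3.70 to 4.12 in rdm4 at 3 h, from -0.11 to 0.34 in rdm4 at 48 h, from -2.75 to -2.33 between rdm4 and WT at 0 h and from -3.17 to -2.72 at 48 h. Those of PDF1.2 ranged from -0.39 to -0.21 in rdm4 at 48 h and from -1.22 to -1.04 between the genotypes at 48 h. Those of PDF2.1 ranged from 2.74 to 3.01 in WT at 3 h, 2.25 to 2.51 in WT at 48 h, 0.41 to 0.65 in rdm4 at 48 h, 2.24 to 2.5 between the genotypes at 0 h and 0.39 to 0.64 at 48 h. Counts of calls between rdm4 and WT at 0 h ranged over 1 to 2 of the other defensins (2 with all arrays), 2 to 5 of the 11 pathway genes (5) and 2 to 3 of the root markers (4); the pathway count was 3 when only the compared arrays were fitted and 3 without the 3 h arrays. At 48 h the other defensins ranged over 1 to 3 (3). The root marker count of 1 at 48 h was 0 on leaving out any 1 of the 4 arrays, after quantile normalization, with trend and robust estimation in eBayes, and without the dimmest 30% of probe sets. In rdm4 at 3 h the pathway count ranged from 3 to 6 (6) and in rdm4 at 48 h the root marker count from 2 to 4 (4). The causes were not tested. The other counts stayed within 1.5 times. With 2 arrays a group and possible cross-reading of copies, levels of single defensin copies are not resolved.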
